A study of Homo sapiens with 30 samples.

Results

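The 4 Fos family genes (FOS, FOSB, FOSL1, FOSL2), the 3 Jun family genes (JUN, JUNB, JUND) and the immediate early genes EGR1, IER2 and ATF3 were examined by RNA-Seq in neuroblastoma (NB) cells. These 10 genes were chosen by symbol out of 26228 genes in the deposited table of FPKM (fragments corrected for gene length and library size). Each of the 10 was above 0 in all 30 libraries, and each had a mean of at least 1 FPKM, the limit for testing, which 11575 genes passed.

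AP-1 is a transcription factor made of pairs of basic leucine zipper (bZIP) proteins, in which a Jun protein joins a Fos, ATF or another Jun protein. Immediate early genes are transcribed within minutes of a stimulus, without new protein synthesis, mainly through ERK and stress kinase signaling to factors such as SRF, ELK1, CREB and Jun bound at their promoters, and their transcripts are short-lived. CDK9, the kinase of P-TEFb, releases RNA polymerase II from its pause near the promoter, and RNA polymerase II is known to pause on many immediate early genes.

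SH-EP, an established NB line of mesenchymal identity without MYCN amplification, was studied as the parental line and as 4 stable lines made by retroviral transfer of MYCN under an exogenous promoter, with WT MYCN or with the substitutions T58A, S62A, or T58A S62A, which alter phosphorylation sites that control the protein's stability. Each line was treated for 6 hours with DMSO or with 1 μM CYC065, an inhibitor of CDK9 and CDK2, giving 10 groups of 3 libraries. Whether the stable lines are clones or pools is not given in the sources used here, and nothing states that the 3 libraries of a group came from separate cultures, so p-values measure the spread between these libraries, which may be technical.

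The read depth of the libraries is unknown. From low FPKM values, depth relative to the deepest library was 0.448 to 1 in DMSO and 0.342 to 0.576 in CYC065. MYCN was listed at 0 in all 6 SH-EP libraries and ranged from 5.08 to 20.1 FPKM in the 24 libraries of the MYCN lines. All 7 mesenchymal markers were above 0 in every library. Their summed level in DMSO was 3207 to 3327 FPKM in SH-EP and 1600 to 2269 FPKM in the MYCN lines. In each MYCN line 5 or 6 of the 7 were lower, against 22.6% to 24.1% of all genes. YAP1 was higher in T58A (log2 difference 0.24) and TWIST1 in T58A S62A (0.70). The lower summed level set the MYCN lines apart from SH-EP, as did the differences from SH-EP given below, and its part in them was not tested. Of 7 adrenergic markers, PHOX2A, DBH, and CHGA were at 0 in at least 28 of 30 libraries and TH stayed under 1 FPKM, but HAND2 (23.1 to 89.3 FPKM) and GATA3 (1.89 to 9.45 FPKM) were expressed in all 30. Of 6 markers of other cell types, 5 stayed under 1 FPKM, with CDH1 and CDH5 at 0 in at least 28 libraries, and only CD68 was expressed. Their summed level was 16.2 to 19.6 FPKM in SH-EP and 2.84 to 7.26 FPKM in the MYCN lines in DMSO, and its part in the results was not tested. Each of the 6 SH-EP libraries had an index that some library of a MYCN line also had, so that a difference between library pools and one between SH-EP and the MYCN lines cannot be told apart.

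Promoter stretches are shown for the members on which the results below turn, because several hold elements through which immediate early genes are known to be induced. They are the 200 bases upstream of the start site, from RefSeq on GRCh38.p14, which had entries for 9 members, with the first listed start site used for ATF3. Capitals mark CArG boxes (the SRF site), TGACGTCA (the full CRE) and TGACG on either strand (the CRE half-site, which lies inside the full CRE). They also mark TGACATCA on either strand (the variant AP-1/CRE site) and TGANTCA (the AP-1 site with any middle base). On the gene's own strand, they mark TATAAA (the TATA box).
EGR1 (chr5:138465279-138465478, plus strand): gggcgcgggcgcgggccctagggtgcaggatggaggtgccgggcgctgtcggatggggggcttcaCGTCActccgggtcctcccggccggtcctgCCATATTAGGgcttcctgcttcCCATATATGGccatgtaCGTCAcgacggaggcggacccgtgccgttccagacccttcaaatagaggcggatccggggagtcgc
FOS (chr14:75278628-75278827, plus strand): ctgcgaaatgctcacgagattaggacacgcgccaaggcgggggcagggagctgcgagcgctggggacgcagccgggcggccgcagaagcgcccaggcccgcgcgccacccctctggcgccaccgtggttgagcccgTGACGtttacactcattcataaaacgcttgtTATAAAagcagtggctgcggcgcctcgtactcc
JUN (chr1:58784048-58784247, minus strand): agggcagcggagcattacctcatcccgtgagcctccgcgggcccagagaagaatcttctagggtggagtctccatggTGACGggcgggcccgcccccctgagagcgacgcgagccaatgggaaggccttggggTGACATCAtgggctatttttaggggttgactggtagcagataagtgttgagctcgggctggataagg
ATF3 (chr1:212565207-212565406, plus strand): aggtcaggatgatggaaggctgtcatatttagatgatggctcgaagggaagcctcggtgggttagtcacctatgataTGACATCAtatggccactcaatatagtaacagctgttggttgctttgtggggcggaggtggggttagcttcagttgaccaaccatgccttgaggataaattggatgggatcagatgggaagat
JUNB (chr19:12791286-12791485, plus strand): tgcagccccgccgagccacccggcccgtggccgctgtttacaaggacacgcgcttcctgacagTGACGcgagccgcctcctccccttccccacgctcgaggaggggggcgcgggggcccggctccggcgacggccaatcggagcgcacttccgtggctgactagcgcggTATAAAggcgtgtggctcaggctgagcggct
JUND (chr19:18281623-18281822, minus strand): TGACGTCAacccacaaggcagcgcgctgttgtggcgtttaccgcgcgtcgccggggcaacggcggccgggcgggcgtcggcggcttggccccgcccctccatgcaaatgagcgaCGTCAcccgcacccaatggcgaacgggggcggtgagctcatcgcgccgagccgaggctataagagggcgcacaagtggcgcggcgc

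EGR1 held 2 CArG boxes, the first base of each at positions -105 and -83 from the start, and no other member held one in this window, against 0.983% of 35116 promoters. TGACATCA stood at -67 in JUN and at -123 in ATF3, and it was present in 2.198% of promoters. The stretch before the other listed ATF3 start site held none of these elements, and which start these cells used was not tested. TATAAA stood at -33 in FOS, -30 in FOSB and -31 in JUNB, against 5.58% of promoters. JUND held the full CRE at -200, as did 1.57% of promoters. CRE half-sites were present in 8 of the 9 members and in 18.4% of promoters. TGANTCA was in none of the 9 windows and in 5.38% of promoters. A match is a run of letters and not a measured site.

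On GRCh37, the build of the files, the 10 genes lie on 6 chromosomes, with 4 of them on chromosome 19. FOS spans chr14:75745529-75748933, EGR1 chr5:137801168-137804992, JUN chr1:59242517-59249720, JUNB chr19:12902300-12904129, JUND chr19:18390504-18392432, and ATF3 chr1:212738676-212794119. The 3 Jun genes have a single exon, EGR1 and IER2 have 2, and the others have 4. Of the 10, 8 span under 10 kb, as did 20.6% of the tested genes with a known span, whose median was 31.7 kb. FOSB overlaps ERCC1 and JUNB overlaps HOOK2, both on the opposite strand, and the libraries were counted with strand.

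In DMSO-treated SH-EP cells, FOSL1 was the main Fos family transcript and no Jun family transcript led. FOSL1, which encodes FRA-1 and is kept high in mesenchymal tumor cells, stood at 86.0, 92.7, and 101 FPKM. FOS stood at 9.39, 9.72, and 11.1 FPKM, and FOSB, its close relative, at 0.335, 0.342, and 0.442 FPKM. As shares of the summed FPKM of the family in SH-EP in DMSO, FOSL1 took 73.1% ± 0.608 (SD, n = 3), FOSL2 (FRA-2) 18.7% ± 0.821, FOS 7.89% ± 0.261, and FOSB 0.294% ± 0.0482. The Jun family was nearly even, with JUNB at 36.7% ± 1.16, JUND at 33.5% ± 2.41, and JUN at 29.9% ± 1.33. FPKM is corrected for length, so these shares compare levels between genes, and a share does not depend on the scaling of a library.

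Both families had another makeup in the MYCN lines and in CYC065. FOS took 22.9% to 26.4% of Fos family FPKM in the 4 MYCN lines in DMSO (group means) and 32.4% to 37.1% in CYC065, and FOSL1 took 47.5% to 51.5% there. In SH-EP with CYC065, FOS took 19.3% ± 0.634, less than in any MYCN line. The lowest FOS share in a DMSO library of a MYCN line, 20.4%, lay above the highest in SH-EP, 8.05%. JUNB took 85.2% to 92.6% of Jun family FPKM in CYC065 in the 5 lines (group means), against 36.7% to 57.97% in DMSO. JUND, which is not an immediate early gene and is known for steady expression in resting cells, took 31.2% to 34.8% in DMSO and 1.93% to 3.84% in CYC065. The ratio of JUNB to JUND was 1.10 ± 0.109 in SH-EP in DMSO and 29.2 ± 1.01 in CYC065 (SD, n = 3), and in T58A S62A it was 1.87 ± 0.242 and 47.8 ± 6.27. No library of one treatment overlapped the other in this ratio.

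**Figure D1:**
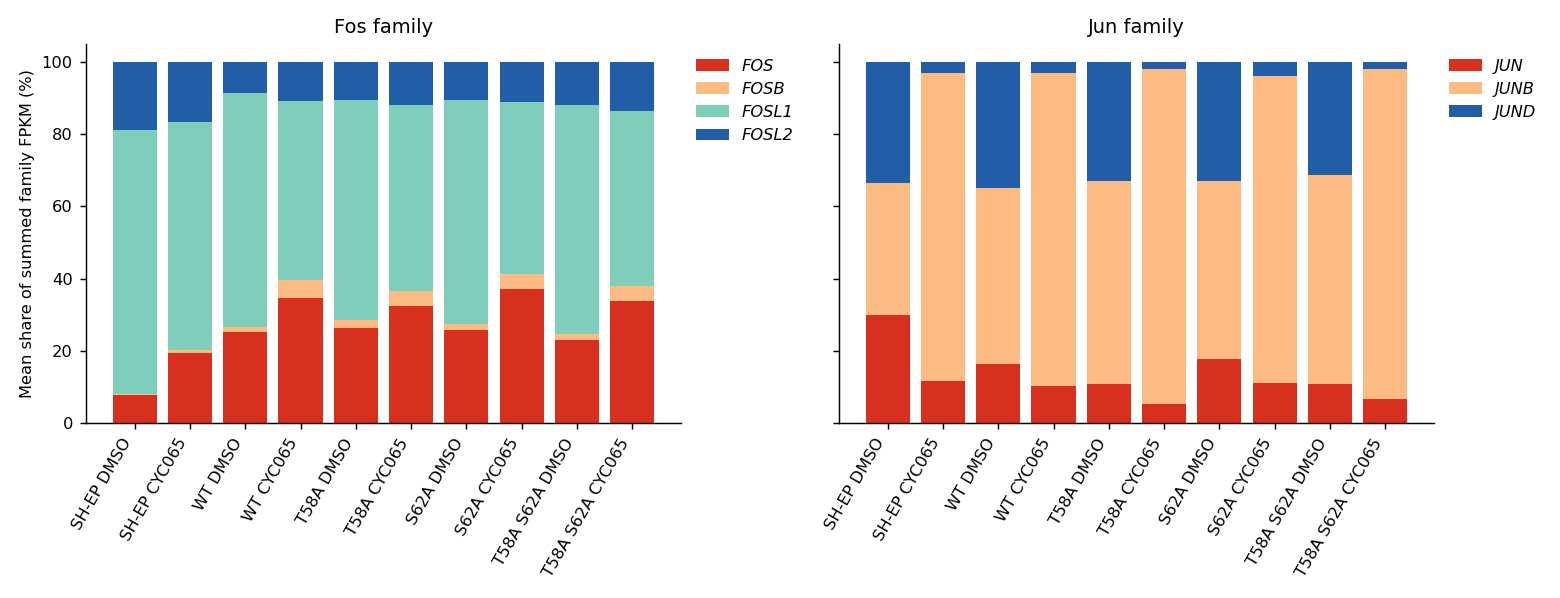
Mean share (%) of each gene in the summed FPKM of the Fos family (left) and the Jun family (right) for the 5 lines in DMSO and CYC065, 3 libraries each. FOSL1 takes 73.1% of the Fos family in SH-EP in DMSO, and JUNB takes 85.2% to 92.6% of the Jun family in the CYC065 groups.

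On FPKM as deposited, JUND varied least across the 10 groups and FOSB most. The highest group mean was 1.77 times the lowest for JUND, 2.34 times for FOSL1, 2.68 times for FOSL2, 6.71 times for JUN, 14.96 times for IER2, 16.9 times for FOS, 22.4 times for EGR1, 31.3 times for JUNB, 45.4 times for ATF3, and 51.9 times for FOSB. As deposited, S62A in CYC065 held the highest mean of FOS, FOSB, FOSL1, FOSL2, EGR1, and ATF3, and it overlapped the next group for FOSB, FOSL2, and ATF3. T58A S62A in CYC065 held the highest mean of JUNB, whose libraries overlapped those of T58A in CYC065, and of IER2, whose libraries overlapped no other group's. As deposited, SH-EP in DMSO held the lowest mean of FOS, FOSB, FOSL1, JUNB, EGR1, IER2, and ATF3, without overlap with the next group. For JUN the lowest was T58A in DMSO, and for JUND it was SH-EP in CYC065. Scaling to the spike-ins (ERCC RNAs added by cell number) gave another order. On that scale the fold between the highest and lowest group mean was 3.03 for FOS and 12.1 for JUND, with JUNB widest at 23.3. S62A in CYC065 then held the lowest mean of FOSL1, FOSL2, and JUND, T58A S62A in CYC065 the highest of FOS, FOSB, JUNB, EGR1, and ATF3, and SH-EP in DMSO the highest of FOSL1, FOSL2, and JUND. SH-EP in DMSO kept the lowest mean of FOS and FOSB, and S62A in DMSO held that of JUN, JUNB, EGR1, IER2, and ATF3.

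**Figure D2:**
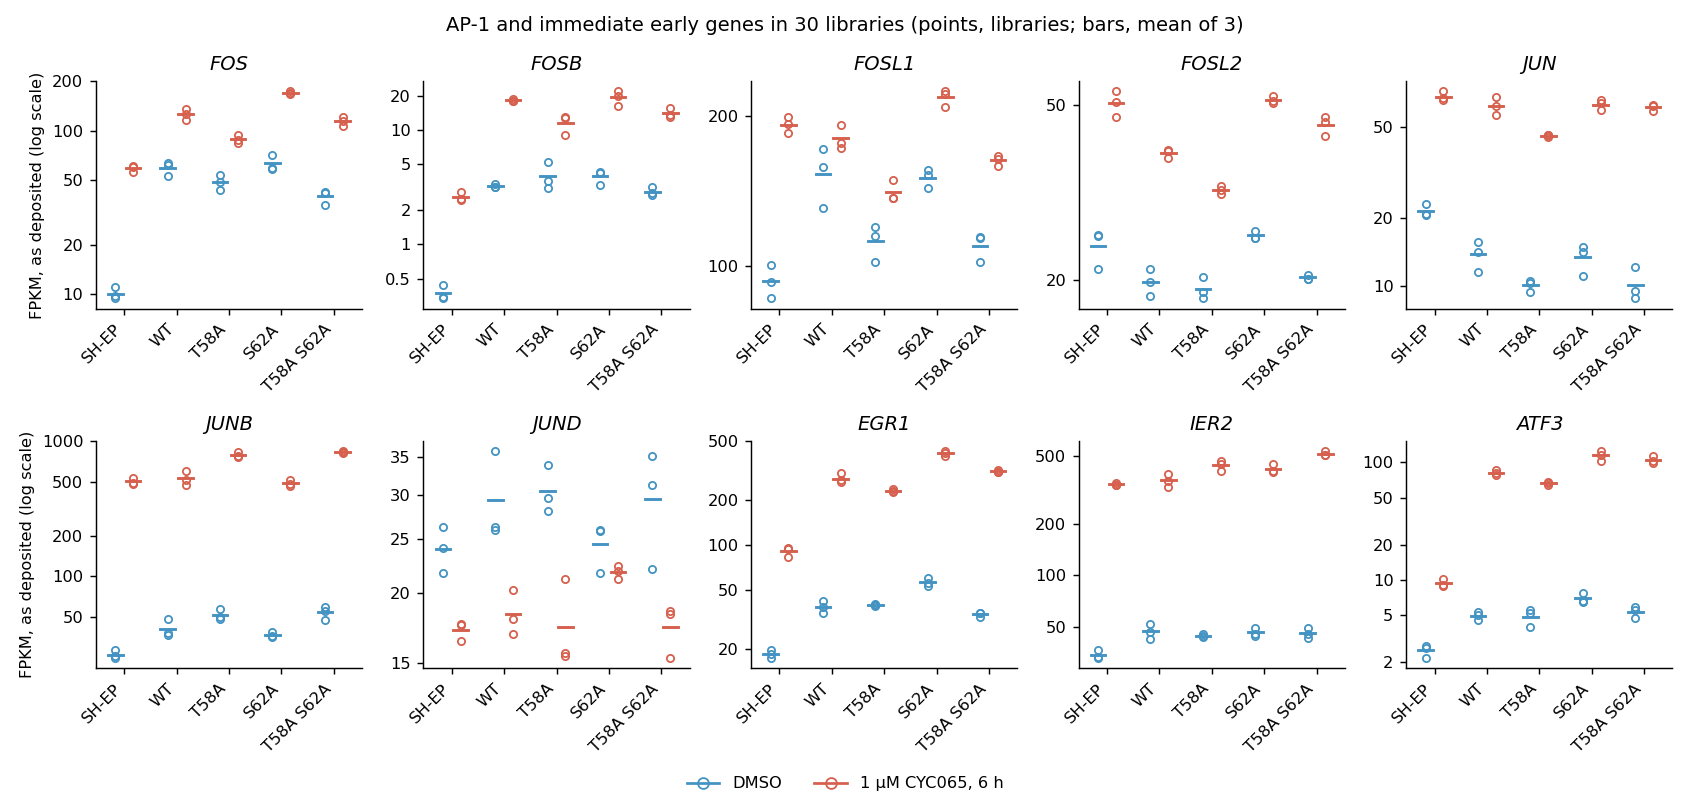
FPKM as deposited (log scales) of each of the 10 genes in the 5 lines, with DMSO in blue and CYC065 in red. Points are the 3 libraries of a group and bars their mean, and CYC065 libraries lie above the DMSO libraries of the same line for every gene but JUND.

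The first comparison asked how the untreated MYCN lines stood against untreated SH-EP. On FPKM as deposited, 7 members were higher in all 4 lines, with the largest differences in FOS and FOSB, and JUN was lower in all 4. With libraries scaled to the spike-ins, FOS and FOSB were the members higher in all 4 lines, on a scale where between 69.7% (T58A S62A) and 95% (S62A) of all genes were lower. The median over all tested genes was between 0.05 and 0.07 (log2) as deposited and -1.16 for WT, -0.88 for T58A, -1.86 for S62A, and -0.75 for T58A S62A with spike-ins. In bulk RNA, fewer cells of a type and less RNA per cell cannot be told apart. On the spike-in scale, less RNA per cell and an error in the cell number used for the spike-ins cannot be told apart either.

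FOS was at 9.39, 9.72, and 11.1 FPKM in SH-EP in DMSO. In WT it was at 52.4, 61.8, and 63.5 FPKM, for T58A at 43.3, 48.2, and 53.1, for S62A at 58.5, 59.3, and 70.8, and for T58A S62A at 35.1, 41.5, and 41.9. All 12 MYCN-line libraries thus lay more than 3 times above all SH-EP libraries. The log2 difference was 2.54 ± 0.091 (SE, adjusted p 9.22e-17) for WT, 2.25 ± 0.091 for T58A, 2.63 ± 0.091 for S62A, and 1.96 ± 0.091 for T58A S62A (limma, Benjamini-Hochberg). With spike-ins these were 1.30 ± 0.21, 1.30 ± 0.21, 0.69 ± 0.21, and 1.14 ± 0.21, all past the threshold (largest adjusted p 0.00357, S62A).

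FOSB was under 0.5 FPKM in SH-EP, at 0.335, 0.342, and 0.442. In the MYCN lines in DMSO it ran from 2.69 FPKM, the lowest T58A S62A library, to 5.21 FPKM, the highest T58A library. It rose by 2.82 ± 0.16 for WT, 3.08 ± 0.16 for T58A, 3.09 ± 0.16 for S62A, and 2.66 ± 0.16 for T58A S62A on the log2(FPKM + 0.1) scale, which understates the fold of so low a gene (largest adjusted p 6.93e-13, limma). With spike-ins the differences were 1.78, 2.35, 1.38, and 2.04 in the same order, each past the threshold.

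EGR1, a zinc finger factor induced through SRF, ATF3, a bZIP stress factor, and JUNB were higher in the MYCN lines only as deposited. EGR1 was at 17.3, 18.6, and 19.7 FPKM in SH-EP and between 32.9 and 59.7 FPKM in the 12 MYCN-line libraries, with no overlap, and its log2 difference was 0.88 (T58A S62A) to 1.59 (S62A). With spike-ins EGR1 passed in no line, at -0.21 for WT, 0.14 for T58A, -0.35 for S62A, and 0.05 for T58A S62A (adjusted p 0.0968 to 0.842). ATF3 was at 2.17, 2.64, and 2.75 FPKM in SH-EP and at 3.96 to 7.70 in the MYCN lines, with differences of 0.92 (T58A) to 1.43 (S62A). With spike-ins ATF3 was lower in S62A, at -0.48 ± 0.22, and between -0.26 and 0.26 in the others, which did not pass. JUNB was at 24.9, 25.6, and 28.4 FPKM in SH-EP and at 35.5 to 59.8 in the MYCN lines, and rose by 0.48 (S62A) to 1.03 (T58A S62A). With spike-ins JUNB was lower in WT (-0.63) and S62A (-1.47) and did not pass in T58A (0.03) or T58A S62A (0.20).

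FOSL1 and IER2 rose less as deposited and turned with the spike-ins. FOSL1 rose by 0.71 ± 0.078 for WT, 0.27 ± 0.078 for T58A, 0.69 ± 0.078 for S62A, and 0.24 ± 0.078 for T58A S62A, and with spike-ins it was lower, at -0.54, -0.69, -1.26, and -0.59. IER2, a nuclear protein of the immediate early response, rose by 0.37 to 0.45 as deposited in the 4 lines, and with spike-ins was lower in WT (-0.80), T58A (-0.58), and S62A (-1.52), with -0.41 in T58A S62A not passing (adjusted p 0.0646). The FOSL1 call in T58A S62A was lost without the SH-EP library whose column ends in 2, with a difference of 0.18.

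JUN, the founding member of its family, was at 20.5, 20.8, and 22.9 FPKM in SH-EP. It was at 11.5, 14.2, and 15.7 for WT, at 9.40, 10.4, and 10.5 for T58A, at 11.1, 14.1, and 14.9 for S62A, and at 8.85, 9.54, and 12.1 for T58A S62A. No MYCN-line library reached the lowest SH-EP library. The log2 difference of JUN was -0.64 ± 0.11 for WT, -1.08 ± 0.11 for T58A, -0.68 ± 0.11 for S62A, and -1.08 ± 0.11 for T58A S62A (largest adjusted p 3.10e-05, limma), and with spike-ins it was -1.89, -2.03, -2.63, and -1.91. FOSL2 was lower in WT, T58A, and T58A S62A, at -0.26, -0.32, and -0.23, and was at 0.09 ± 0.063 in S62A, not past the threshold, and with spike-ins it was lower in all 4 lines (-1.06 to -1.86). In fits of only the groups compared, the deposited FOSL2 calls in WT and T58A S62A were lost, and JUND passed in T58A (0.34) and did so too when the filter on low values was set at 5 FPKM. JUND passed in no line as deposited (0.03 to 0.34, smallest adjusted p 0.0546 in T58A) and was lower in all 4 with spike-ins (-0.56 to -1.92). Without the SH-EP library whose column ends in 2, JUND passed in T58A at 0.41, and without the T58A S62A library whose column ends in 1 it passed in T58A S62A at 0.47.

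In each line, 7 of the 10 members were higher as deposited, where of all tested genes 31.6% were higher for WT, 30.9% for T58A, 31.0% for S62A, and 31.2% for T58A S62A. Lower were 2 members in WT, T58A, and T58A S62A and 1 in S62A, against 22.6%, 23.3%, 24.1%, and 23.4% of all genes in that order. The median of the members was 0.59 to 0.67 in the 4 lines, against at most 0.07 over all genes. The 7 members higher in every line were among 2218 such genes, 19.2% of those tested, and JUN was among 1549 (13.4%) that were lower in every line. With spike-ins, 2 members were higher in each line, and 6, 5, 7, and 4 were lower for WT, T58A, S62A, and T58A S62A. On that scale 0.994%, 1.87%, 0.389%, and 2.27% of all genes were higher, and 88.5%, 77.6%, 95%, and 69.7% were lower. The 4 comparisons share the SH-EP libraries.

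**Figure D3:**
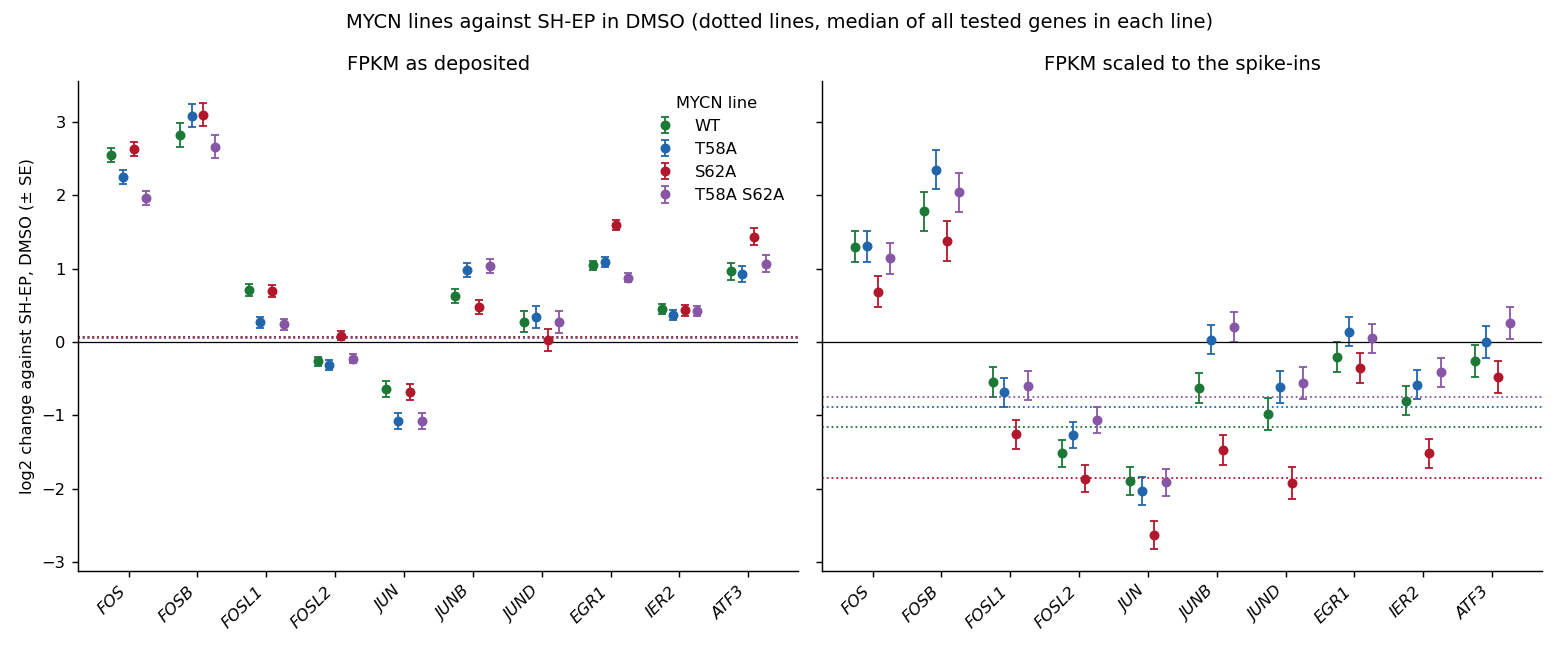
Log2 difference (± SE, limma) of each gene in the 4 MYCN lines against SH-EP in DMSO, from FPKM as deposited (left) and scaled to the spike-ins (right). Dotted lines give the median of all tested genes per line, and FOS and FOSB alone stay above 0 in all 4 lines in both panels.

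The mutants were then compared with WT in DMSO. Each substitution was carried by a stable line of its own, and the MYCN level differed between lines. In DMSO, MYCN was at 11.7 to 13.7 FPKM in WT and 7.27 to 9.84 in T58A. It was at 5.08 to 6.59 FPKM in S62A and 9.06 to 15.7 in T58A S62A. A substitution, the MYCN level and other traits of a line therefore cannot be told apart. As deposited, T58A and T58A S62A differed from WT in the same 4 genes, FOS, FOSL1, JUN, and JUNB, and S62A differed in ATF3, EGR1, and FOSL2. Against WT, FOS was at -0.30 ± 0.091 in T58A (adjusted p 0.0193, limma) and -0.58 ± 0.091 in T58A S62A, FOSL1 was at -0.44 and -0.47, and JUN at -0.44 in both. JUNB was higher, at 0.36 ± 0.095 and 0.41 ± 0.095. In S62A, EGR1 was higher by 0.55 ± 0.064, with 53.2, 55.6, and 59.7 FPKM against 35.0, 38.2, and 41.8 in WT, ATF3 by 0.47 ± 0.11, and FOSL2 by 0.35 ± 0.063. These were 4, 3, and 4 members in T58A, S62A, and T58A S62A, where 23.6%, 24.1%, and 23.7% of all genes were called, and the 3 comparisons share the WT libraries.

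Scaling changed nearly all of these calls. With spike-ins JUNB alone remained for T58A (0.66, adjusted p 0.0430) and T58A S62A (0.83, adjusted p 0.00689), while 74.8% of all genes and 6 members (FOS, FOSL1, IER2, JUN, JUNB, JUND) were lower for S62A than for WT. On that scale, 8.13% of all genes were higher in T58A and 23.2% in T58A S62A, with medians of 0.28 and 0.39. In that scaling EGR1, ATF3, and FOSL2 in S62A were at -0.14, -0.21, and -0.34. As deposited, FOS in T58A lost its call without the WT library ending in 0 (-0.24), the WT library ending in 1 (-0.26), or the T58A library ending in 1 (-0.22), and JUNB in T58A without the WT library ending in 2 or the T58A library ending in 1 (0.28 in both). EGR1 in T58A S62A passed without the WT library ending in 2, at -0.23. In limma fits of only the groups compared, the 4 T58A calls did not pass, and of the 4 T58A S62A calls those of FOSL1, JUN, and JUNB did not. With no filter on low values, FOS in T58A did not pass.

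CYC065 raised 5 members in all 5 lines, JUNB, IER2, ATF3, EGR1, and JUN, while most genes fell. The calls of JUN in SH-EP, WT, and S62A and of ATF3 in SH-EP were lost in some alternative fits given below. On spike-in scaled FPKM, the median over all genes was -1.06 in SH-EP, -1.57 for WT, -1.08 for T58A, -1.35 for S62A, and -0.97 for T58A S62A. The 5 were among 58 genes (0.501% of those tested) higher in every line, and JUND was among 8031 (69.4%) lower in every line. FOSB rose in 4 lines and FOS in SH-EP alone, and FOSL1 and FOSL2 fell in most MYCN lines. Values below are log2 changes on spike-in scaled FPKM with SE (limma, Benjamini-Hochberg over 11575 genes), and levels are FPKM as deposited unless said to be scaled.

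JUNB, a Jun protein that often opposes JUN in proliferation, had its largest change in SH-EP. It went from 24.9, 25.6, and 28.4 FPKM in DMSO to 484, 492, and 529 FPKM in CYC065 in SH-EP, and from 47.5, 55.2, and 59.8 to 810, 822, and 843 FPKM in T58A S62A. On the scaled FPKM the SH-EP values were 75.9, 84.2, and 91.4 in DMSO and 575, 695, and 752 in CYC065. Treated and untreated libraries did not overlap in any line on either scale. The change was 3.001 ± 0.20 in SH-EP (adjusted p 7.19e-13), 2.01 ± 0.20 for WT, 2.73 ± 0.20 for T58A, 2.22 ± 0.20 for S62A, and 2.85 ± 0.20 for T58A S62A. As deposited it was 3.70 to 4.25.

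IER2 went from 32.8, 33.3, and 36.7 FPKM to 336, 337, and 345 FPKM in SH-EP and from 43.2, 45.3, and 49.2 to 502, 505, and 532 FPKM in T58A S62A. Its change was 2.06 ± 0.20 in SH-EP, 1.24 ± 0.20 for WT, 2.12 ± 0.20 for T58A, 1.67 ± 0.20 for S62A, and 2.40 ± 0.20 for T58A S62A (largest adjusted p 1.86e-06). EGR1 went from 17.3, 18.6, and 19.7 to 83.7, 93.9, and 95.4 FPKM in SH-EP and from 53.2, 55.6, and 59.7 to 401, 416, and 431 FPKM in S62A. The change of EGR1 was 1.04 ± 0.20 in SH-EP, 1.19 ± 0.20 for WT, 1.37 ± 0.20 for T58A, 1.39 ± 0.20 for S62A, and 2.12 ± 0.20 for T58A S62A. For both genes, treated libraries lay above untreated ones in all 5 lines on both scales.

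ATF3 rose far less in SH-EP than in the MYCN lines. In SH-EP it went from 2.17, 2.64, and 2.75 FPKM to 8.84, 9.11, and 10.2 FPKM. In WT it went from 4.57, 5.004, and 5.39 to 77.2, 80.5, and 85.2 FPKM, for T58A from 3.96, 5.20, and 5.52 to 64.3, 66.3, and 68.0, for S62A from 6.51, 6.69, and 7.70 to 103, 116, and 125, and for T58A S62A from 4.71, 5.52, and 5.95 to 98.0, 103, and 113. Every treated MYCN-line library was above 60 FPKM, and no treated SH-EP library passed 11. The change was 0.64 ± 0.22 in SH-EP (adjusted p 0.00910), 2.32 ± 0.22 for WT, 2.56 ± 0.22 for T58A, 2.51 ± 0.22 for S62A, and 3.19 ± 0.22 for T58A S62A. The SH-EP call was lost without the DMSO library ending in 1, at 0.51.

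JUN rose by 0.41 ± 0.19 in SH-EP (adjusted p 0.0488), 0.48 ± 0.19 for WT (adjusted p 0.0177), 0.98 ± 0.19 for T58A, 0.73 ± 0.19 for S62A, and 1.52 ± 0.19 for T58A S62A. On the scaled FPKM, JUN in WT was at 14.7, 15.9, and 25.9 in DMSO and 22.2, 23.6, and 31.7 in CYC065, so the groups overlapped, whereas in T58A S62A it went from 16.0, 19.1, and 19.2 to 43.2, 55.7, and 57.2. The SH-EP call did not stand without any one of the 6 SH-EP libraries (0.36 to 0.47), nor the WT call without the WT DMSO library ending in 1 (0.39) or 2 (0.33) or the CYC065 library ending in 0 (0.33). With spike-ins of at least 50 FPKM, the JUN calls in SH-EP (0.45), WT (0.42), and S62A (0.42) were lost, as were that in SH-EP with no filter and that in WT with only the groups compared. As deposited, JUN rose by 1.66 to 2.59 in the 5 lines.

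FOS and FOSB encode the most closely related Fos proteins. FOS rose in SH-EP by 1.29 ± 0.21, from 30.8, 31.3, and 33.7 to 65.1, 85.1, and 87.0 scaled FPKM. In WT it fell, at -0.60 ± 0.21 (adjusted p 0.0102), from 66.9, 69.6, and 104 to 41.9, 57.0, and 58.7 scaled FPKM. It did not pass in T58A (-0.31), S62A (-0.06), or T58A S62A (0.45, adjusted p 0.0573). As deposited, FOS rose in all 5 lines, by 2.54 in SH-EP and by 1.09, 0.88, 1.44, and 1.53 for WT, T58A, S62A, and T58A S62A. The WT call was lost without the WT DMSO library ending in 0 (-0.39) or the CYC065 library ending in 1 (-0.44). FOS passed in T58A without the DMSO library ending in 1 (-0.62), and in T58A S62A without the DMSO library ending in 0 (0.57) or the CYC065 library ending in 1 (0.58).

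FOSB rose by 1.48 ± 0.27 in SH-EP, 0.79 ± 0.27 for WT, 0.77 ± 0.27 for S62A, and 1.19 ± 0.27 for T58A S62A, and was at 0.36 ± 0.27 for T58A, which did not pass (adjusted p 0.210). In SH-EP it stayed low, going from 0.335, 0.342, and 0.442 to 2.45, 2.48, and 2.89 FPKM, below the lowest treated T58A library at 9.07 FPKM. The S62A call was lost without the DMSO library ending in 2 (0.57) or the CYC065 library ending in 0 (0.62), and with spike-ins of at least 50 FPKM (0.47). FOSB passed in T58A without the DMSO library ending in 2, at 0.68.

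FOSL1 fell in the 4 MYCN lines, at -1.44 ± 0.20 for WT, -0.86 ± 0.20 for T58A, -0.97 ± 0.20 for S62A, and -0.51 ± 0.20 for T58A S62A (adjusted p 0.0245), and was at -0.21 ± 0.20 in SH-EP, which did not pass. FOSL2 fell in WT, T58A, and S62A, at -0.71, -0.44, and -0.48, and was at -0.17 in SH-EP and 0.07 in T58A S62A, which did not pass. As deposited both genes rose in all 5 lines, FOSL1 by 0.24 (WT) to 1.04 (SH-EP) and FOSL2 by 0.74 (T58A) to 1.14 (T58A S62A). All these changes lay above the median of all genes, by 0.12 (WT) to 0.86 (SH-EP) for FOSL1 and by 0.64 (T58A) to 1.04 (T58A S62A) for FOSL2. The FOSL1 call in T58A S62A was lost without the DMSO library ending in 0 (-0.40) or 1 (-0.48) or the CYC065 library ending in 1 (-0.35), with no filter, and with only the groups compared. The FOSL2 call was lost in T58A without the DMSO library ending in 0 (-0.37) or 2 (-0.28) or the CYC065 library ending in 1 or 2 (-0.44 in both), with spike-ins of at least 50 FPKM (-0.28), and with only the groups compared, and in S62A without the DMSO library ending in 1 (-0.37) or the CYC065 library ending in 1 (-0.40).

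JUND fell in every line, at -1.73 ± 0.22 in SH-EP, -2.34 ± 0.22 for WT, -2.002 ± 0.22 for T58A, -1.65 ± 0.22 for S62A, and -1.81 ± 0.22 for T58A S62A (largest adjusted p 1.22e-07). In SH-EP it went from 66.2, 77.6, and 86.2 to 20.5, 23.6, and 25.1 scaled FPKM, without overlap. Relative to the median of all genes it was at -0.66, -0.77, -0.92, -0.30, and -0.84 in the same order. As deposited JUND fell in SH-EP, WT, T58A, and T58A S62A, at -0.48, -0.66, -0.81, and -0.74, and it was at -0.16 in S62A, which did not pass.

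On the spike-in scale, 7 members rose in SH-EP, 6 for WT, 5 for T58A, 6 for S62A, and 6 for T58A S62A, where 0.907%, 0.769%, 1.25%, 0.968%, and 1.85% of all genes rose. The members that fell were 1, 4, 3, 3, and 2, against 75.7%, 93.7%, 84.2%, 90.2%, and 76.3% of all genes. The median change of the members was 0.84, 0.64, 0.67, 0.75, and 1.35. As deposited, 9 members rose in every line, where 37% to 42.7% of all genes did.

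**Figure D4:**
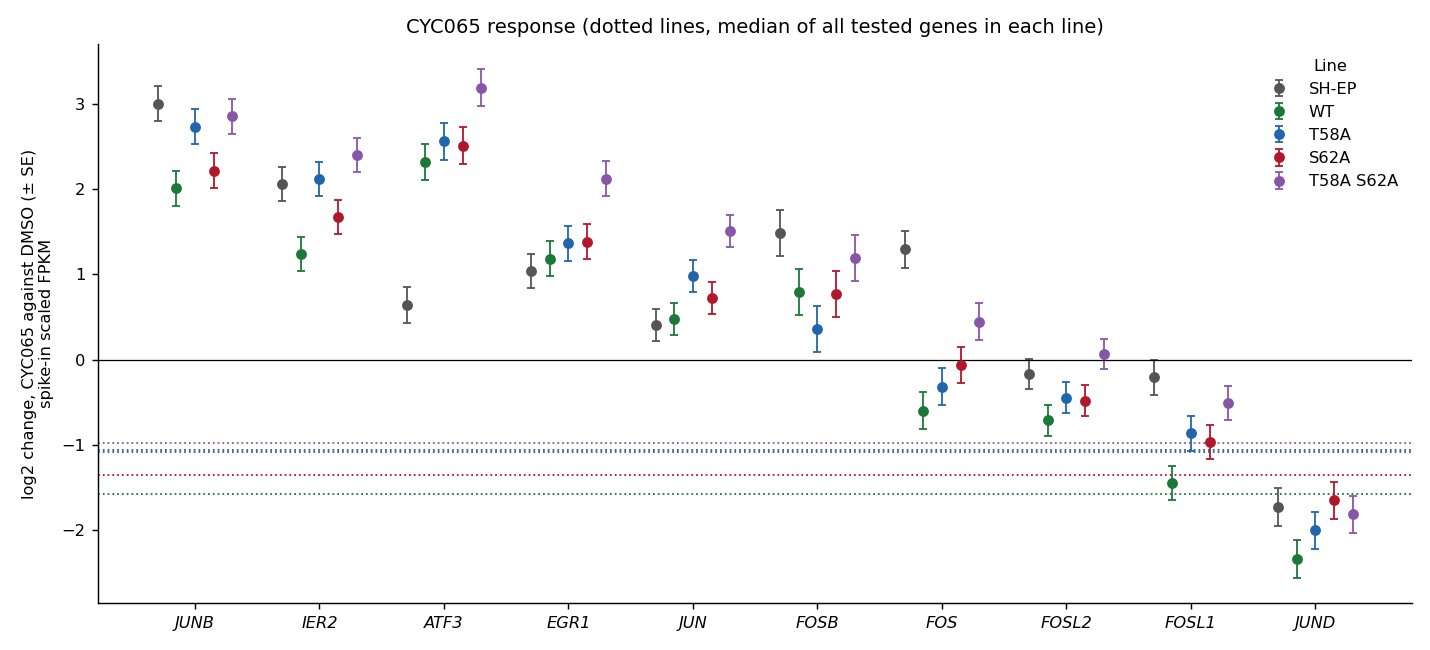
Log2 change (± SE, limma, spike-in scaled FPKM) with CYC065 against DMSO in the 5 lines, for the 10 genes ordered from JUNB to JUND. Dotted lines give the median of all tested genes per line, between -0.97 and -1.57, and JUNB, IER2, ATF3, EGR1, and JUN lie above 0 in every line.

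Whether the response to CYC065 differed between the MYCN lines and SH-EP was tested with the interaction of line and treatment. ATF3 responded more in all 4 MYCN lines, and FOS less in WT, T58A, and S62A. The difference in the ATF3 response was 1.68 ± 0.30 for WT (95% interval 1.05 to 2.30, adjusted p 0.00306), 1.92 ± 0.30 for T58A (1.29 to 2.55), 1.87 ± 0.30 for S62A (1.24 to 2.50), and 2.55 ± 0.30 for T58A S62A (1.92 to 3.17). As deposited it was 2.14, 1.89, 2.16, and 2.40. ATF3 was among 158 genes (1.37%) whose response was higher in all 4 lines. In T58A the ATF3 call did not pass in a fit of only the groups compared, nor in WT with only the 21 spike-ins of at least 50 FPKM (1.57).

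The FOS response differed by -1.89 ± 0.30 for WT (adjusted p 0.000879), -1.61 ± 0.30 for T58A, and -1.36 ± 0.30 for S62A, and by -0.85 ± 0.30 for T58A S62A, which did not pass (adjusted p 0.116). As deposited it was -1.45, -1.66, -1.10, and -1.01, past the threshold in all 4 lines. The T58A call was lost with only the groups compared and with spike-ins of at least 50 FPKM (-1.49). FOS stood higher in DMSO in these lines than in SH-EP, and on the scaled FPKM the treated WT libraries, at 41.9, 57.0, and 58.7, lay below the treated SH-EP libraries, at 65.1, 85.1, and 87.0. In T58A S62A the treated libraries, at 79.4, 104, and 107, overlapped those of SH-EP.

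In WT, FOSL1 (-1.24 ± 0.29), JUNB (-0.99 ± 0.29, adjusted p 0.0340), and IER2 (-0.82 ± 0.28, adjusted p 0.0457) also responded less than in SH-EP, where the median of all genes was -0.52. In T58A S62A, JUN (1.10 ± 0.27, adjusted p 0.01002) and EGR1 (1.08 ± 0.29, adjusted p 0.0211) responded more, with a median over all genes of 0.08. With spike-ins of at least 50 FPKM, the calls of FOSL1 (-1.34), JUNB (-1.09), and IER2 (-0.92) in WT and of JUN (0.86) and EGR1 (0.83) in T58A S62A were lost, as was that of ATF3 in WT (1.57). The JUNB and IER2 calls were also lost with no filter and with only the groups compared, and that of IER2 with a pseudocount of 1. With only the groups compared, the ATF3 call in T58A (1.92) was lost, and FOSL1 (-0.76) and JUNB (-0.78) passed in S62A. The IER2 and JUNB calls in WT were lost without any one of 8 of the 12 libraries (IER2 -0.59 to -0.87, JUNB -0.72 to -1.06). These were the 3 SH-EP DMSO libraries, the SH-EP CYC065 libraries ending in 0 and 1, the WT DMSO library ending in 0, and the WT CYC065 libraries ending in 1 and 2. The FOSL1 call was lost without the WT DMSO library ending in 0 (-1.001) or the CYC065 library ending in 1 (-1.11). The EGR1 call was lost without the SH-EP DMSO library ending in 0 (1.03) or 2 (1.06), the SH-EP CYC065 library ending in 2 (0.92), the T58A S62A DMSO library ending in 2 (1.00), or the CYC065 library ending in 0 (1.02) or 2 (0.98). Without the WT DMSO library ending in 1, JUND passed in WT (-0.80), and without the T58A DMSO library ending in 1, FOSB passed in T58A (-1.50).

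Called in the 4 interaction tests were 5 members for WT, 2 for T58A, 2 for S62A, and 3 for T58A S62A, against 18.1%, 2.59%, 4.95%, and 5.41% of all genes. The 4 tests share the SH-EP libraries. FOSL2 passed in none, with differences of -0.54 ± 0.25, -0.28 ± 0.25, -0.31 ± 0.25, and 0.24 ± 0.25 for WT, T58A, S62A, and T58A S62A.

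**Figure D5:**
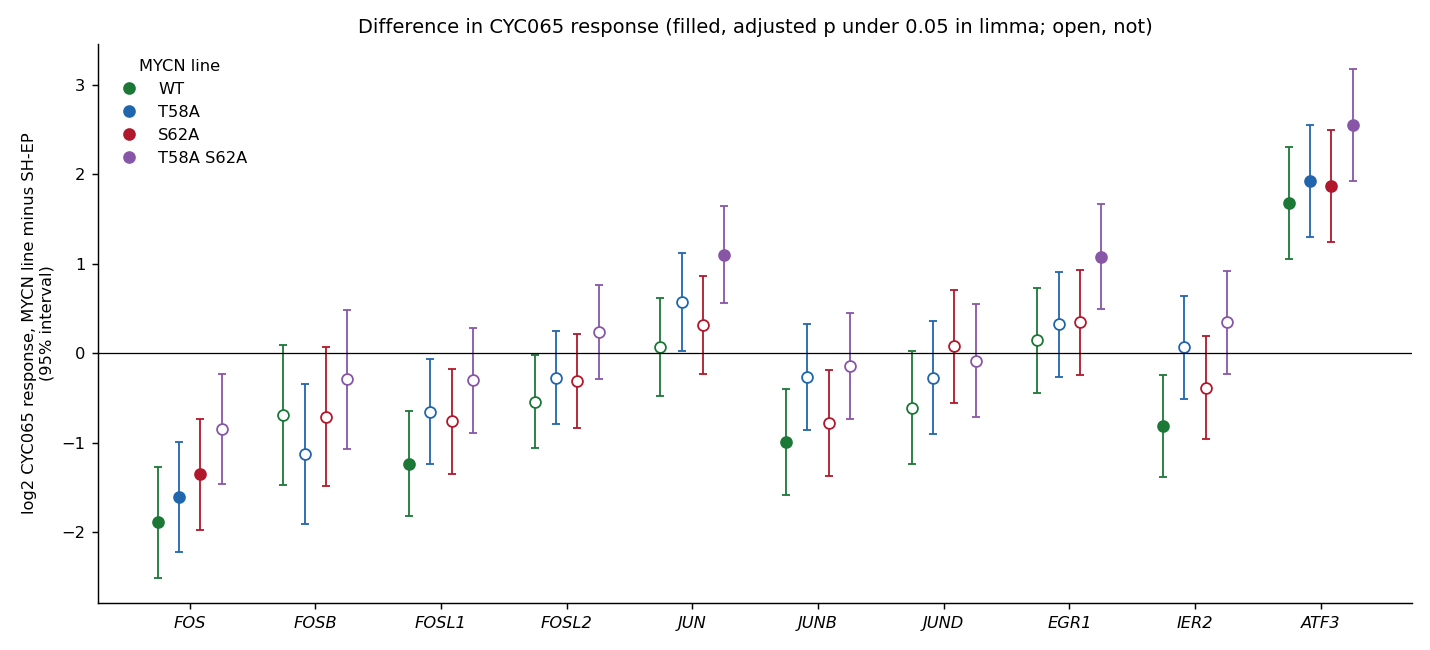
Difference in the log2 response to CYC065 (MYCN line minus SH-EP, 95% interval, limma, spike-in scaled FPKM) for the 10 genes in 4 lines. Filled points passed an adjusted p of 0.05, and ATF3 is the only gene with 4 filled points.

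Other genes around AP-1 were read from 4 lists. Of 30 tested of 34 other immediate early genes, 10 were higher and 2 lower in all 4 MYCN lines in DMSO, where 19.2% of all genes were higher and 13.4% lower. With CYC065, 8 rose and 7 fell in all 5 lines, where 0.501% of all genes rose and 69.4% fell. IER3, a survival gene of the immediate early response, had the largest mean change of the list in both comparisons, from 0.0602 ± 0.0534 FPKM in SH-EP in DMSO to 3.21 ± 1.34 in WT in DMSO and 109 ± 12.7 in WT with CYC065 (SD, n = 3). NR4A2, an orphan nuclear receptor, and DUSP1, the phosphatase that turns off MAP kinases, were higher in the MYCN lines in DMSO by 1.43 and 1.13 (means of 4 lines), and with spike-ins these means were 0.26 and -0.11. TIPARP, an ADP-ribosyltransferase, and GEM, a small GTPase, fell with CYC065, at -2.996 and -2.31 (means of 5 lines), and as deposited the means were -1.71 and -0.98, with GEM at 0.09 in 1 line. The immediate early list thus held genes of both directions, and its median change with CYC065 was -0.49 (WT) to 0.44 (T58A S62A), above the median of all genes in each line.

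Counts of genes for dimer partners and upstream kinases stand beside those of all genes, of which 75.7% to 93.7% fell with CYC065 in each line and 69.4% in all 5. Of 17 tested of 23 other bZIP genes, 14 to 17 fell in each line and 13 in all 5, with CREB1, the CRE-binding factor, at -3.73, DDIT3 (CHOP), the stress factor, at -2.97, and CEBPB at -2.69 (means of 5 lines, all negative as deposited too). Of 24 tested of 25 genes of the kinase and SRF pathways upstream, 21 to 24 fell in each line and 20 in all 5, led by the SRF coactivators MKL2 and MKL1 (both -3.54) and the kinase MAPK7 (ERK5, -3.37). In DMSO, where 19.2% of all genes were higher and 13.4% lower in all 4 MYCN lines, 4 bZIP genes were higher and 2 lower, with MAFK, a small Maf protein, at 0.85, ATF5 at 0.61, and CREB3 at -0.70. Upstream, 5 were higher and 3 lower, with the kinases RPS6KA1 at 1.598, MAP2K3 at 0.97, and MAP2K6 at -1.15. With spike-ins, MAFK, ATF5, and MAP2K3 had means of -0.39, -0.63, and -0.27, and RPS6KA1 of 0.38.

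Of 20 genes known as AP-1 targets, 14 were tested, and 3 were higher and 5 lower in all 4 MYCN lines in DMSO, against 19.2% and 13.4% of all genes. MMP2, a gelatinase, was at 222 ± 5.90 FPKM in SH-EP and 90.7 ± 2.83 in WT (SD, n = 3), with a mean difference of -1.11 over the 4 lines, and HMOX1, a heme oxygenase, was higher by 1.16, which turned to -0.08 with spike-ins. With CYC065, 6 of the 14 fell in all 5 lines, against 69.4% of all genes, among them HMOX1 (-2.93) and EZR (-1.61), a membrane linker, and CXCL8, the cytokine, alone rose in all 5, by 1.12 to 3.43. The median of this list in DMSO was -0.23 (T58A) to -0.77 (T58A S62A).

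Over the 30 libraries, the 3 genes closest to a member by Pearson's r of log2 FPKM as deposited included another member for FOS, JUNB, EGR1, IER2, and ATF3. IER2 and JUNB were close to each other (r = 0.993), as were EGR1 and ATF3 (0.985) and FOS and FOSB (0.960). Closest to JUNB was NUAK2 (0.993), a stress kinase, followed by IER2 and IER5 (0.988), and closest to IER2 was GADD45A (0.996), the growth arrest gene. BHLHE40 stood next to JUN (0.986), YY1 next to ATF3 (0.985), PAICS next to FOSB (0.979), and PSMA7 next to FOSL1 (0.923). JUND had negative r with all 9 other members, from -0.39 (FOS) to -0.79 (JUN), and its closest gene was BRD1 (0.880). The 30 libraries share lines and treatments, and these values are given as a description.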

How the data were processed

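RNA-Seq was analysed from 5 lines in DMSO or 1 μM CYC065 (6 hours), 3 libraries per group. The deposited values are FPKM, which the authors computed with Cufflinks from reads aligned to hg19/GRCh37 by HISAT2. ERCC spike-ins had been added per cell, libraries kept strand, and the table carries no spike-in scaling. The annotation is not given in the sources used here. FPKM hold no read counts, so the depth is unknown and no count test or counting interval was possible. Within groups, r was 0.975 to 0.987, and 0 pairs of libraries were identical. Column names gave the line and treatment of each library.

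Differences between lines used the FPKM as they stand. For CYC065, every library was rescaled to bring 55 of the 92 spike-ins (mean of 1 FPKM or more) to a common median. limma 3.58.1 (R 4.3.3, lmFit, eBayes with trend) was fitted to log2(FPKM + 0.1) of genes averaging 1 FPKM or more in the 30 libraries, over all 10 groups. A two-sided Benjamini-Hochberg adjusted p under 0.05 over all tested genes was the threshold. Exact permutation of 3 libraries a group could reach no p below 0.1 and was not used. The scripts were tested on simulated data.

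Named are the 10 members, up to 3 genes of each other list past the threshold in one direction in all lines with the largest mean change, and the 3 genes closest to each member, of which some are printed and a few are not reported here. Members and lists were chosen with earlier results of these data known. As alternatives, the pseudocount was set to 1 or 0.01, the filter was dropped or set at 5 FPKM, and the fit was repeated with the other scaling, with libraries centred on their median, with 21 spike-ins of at least 50 FPKM, on only the groups compared, and without each library in turn. Promoters came from RefSeq (GRCh38.p14) and positions from GENCODE lifted to GRCh37.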

Additional observations from a re-analysis of the deposited data

Results flagged for a closer look

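In 12 cases the CYC065 response (log2) of a member in a MYCN line was set apart from that in SH-EP by the test of the difference itself (interaction in limma, spike-in scaled FPKM, Benjamini-Hochberg adjusted p under 0.05). For ATF3, a bZIP stress factor, the difference was 1.68 in WT, 1.92 in T58A, 1.87 in S62A, and 2.55 with both substitutions, all toward a larger rise in the MYCN line. For FOS it was -1.89 in WT, -1.61 in T58A, and -1.36 in S62A. In WT, the response was also smaller for FOSL1 (-1.24), JUNB (-0.991), and IER2 (-0.816). With both substitutions, it was larger for EGR1 (1.08) and JUN (1.1), and as deposited it was larger for these genes in every MYCN line. All of these share the SH-EP libraries.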

How the results depend on the processing

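Scaling was the choice that changed most. With spike-ins, the differences from SH-EP in DMSO changed sign for ATF3 (-0.26), EGR1 (-0.21), FOSL1 (-0.54), IER2 (-0.80), JUNB (-0.63), and JUND (-0.98) in WT. In T58A they did for ATF3 (-0.0017), FOSL1 (-0.69), IER2 (-0.58), and JUND (-0.61), and in S62A for ATF3 (-0.48), EGR1 (-0.35), FOSL1 (-1.26), FOSL2 (-1.86), IER2 (-1.52), JUNB (-1.47), and JUND (-1.92). With both substitutions they did for FOSL1 (-0.59), IER2 (-0.41), and JUND (-0.56). FOS, FOSB, and JUN kept their direction and their call in all 4 lines under this scaling. Members higher went from 7 to 2 in each line, and members lower to 6 in WT, 5 in T58A, 7 in S62A, and 4 with both. Of all genes, 0.389% to 2.27% were higher on that scale and 69.7% to 95% lower. Against WT, FOS in T58A went to 0.0061, and in S62A ATF3 went to -0.21, EGR1 to -0.14, FOS to -0.61, and FOSL2 to -0.34, with 1, 6, and 1 members called in T58A, S62A, and both, in place of 4, 3, and 4. Of all genes, 8.13%, 0.181%, and 23.2% were higher there, and 0.458%, 74.8%, and 1.02% lower.

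For CYC065, FPKM as deposited turned FOSL1 to 1.04 in SH-EP, 0.24 in WT, 0.33 in T58A, 0.53 in S62A, and 0.57 with both, FOSL2 to 1.08, 0.97, 0.74, and 1.02 in the first 4 of these lines, and FOS to 1.09 in WT, 0.88 in T58A, and 1.44 in S62A. Libraries centred on their median turned FOSL1 to 1.18, 0.42, 0.51, 0.70, and 0.72, FOSL2 to 1.22, 1.15, 0.93, and 1.19, FOS to 1.27, 1.06, and 1.61, and JUND in S62A to 0.0067. Under either, members lower went to 1 in WT (from 4), 1 in T58A (from 3), 0 in S62A (from 3), and 1 with both (from 2), and members higher in T58A to 9 (from 5). As deposited, 37% to 42.7% of all genes rose and 33.3% to 34.6% fell. Under either, the responses called as different from SH-EP went to 7 in T58A (from 2), 6 in S62A (from 2), and 5 with both (from 3). With spike-ins, 2.59%, 4.95%, and 5.41% of all genes were called in these lines. As deposited, 9.9%, 10.9%, and 10.6% of all genes were called higher there, and 14%, 13.7%, and 14.8% lower. In WT as deposited, JUN (0.50) and EGR1 (0.58) were added, where 10.4% of all genes were called higher and 18.1% lower.

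With no filter, members lower with both substitutions went to 1, and responses called in WT to 3 (from 5). With spike-ins of at least 50 FPKM, responses called went to 1 in WT, 1 in T58A, and 1 with both. In fits of only the groups compared, members lower in DMSO went to 1 in WT and 1 with both, calls against WT to 0 in T58A and 1 with both, members lower with CYC065 to 1 with both, and responses called to 3 in WT, 0 in T58A, and 4 in S62A. The cause of these changes was not tested. Fits of only the groups compared also held fewer libraries. Pseudocounts of 1 and 0.01 kept direction and call in every result for single members but 1. Leaving out 1 library gave 2 to 4 calls for T58A against WT (2 without the T58A DMSO library ending in 1), 2 to 6 called responses in WT (2 without the WT DMSO library ending in 0 or the CYC065 library ending in 1), and 1 to 2 members lower with CYC065 with both substitutions (1 without the DMSO library ending in 0 or 1 or the CYC065 library ending in 1).

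No paired analysis was possible because the numbers that end the columns run from 0 to 2 and match none of the replicate numbers given in the labels. Depth in reads is unknown, and relative depth was 0.342 to 0.576 in CYC065 against 0.448 to 1 in DMSO. The spike-in scale rests on the cell numbers by which the spike-ins were added, which were not analysed here.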

Other observations

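Most of the members are short genes, and short genes as a class fell less with CYC065 on the spike-in scale. Of the 10 members, 5 span under 5 kb, 3 span 5 to 10 kb, FOSL2 spans 24.9 kb, and ATF3 spans 55.4 kb. Among 1090 tested genes under 5 kb, the median log2 change was -0.65 in SH-EP, -1.24 in WT, -0.63 in T58A, -0.79 in S62A, and -0.47 with both substitutions. Among 2012 genes over 100 kb it was -1.16, -1.595, -1.21, -1.56, and -1.09. In SH-EP, 2.94% of the genes under 5 kb and 0.497% of those over 100 kb rose, and with both substitutions 6.79% and 0.795% did. ATF3, which rose in all 5 lines, lies by its whole annotated span in the class of 30 to 100 kb, where 0.143% (WT) to 0.684% (both substitutions) of genes rose. Another ATF3 start site is listed downstream, after chr1:212614818-212615017 on GRCh38, from which the transcribed span is shorter. Which start these cells used was not tested. JUND, under 5 kb, fell in all 5 lines. The span of a gene and its other properties were not separated here.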
